A study of Mus musculus with 2 samples.

Results

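The genes of fatty acid synthesis and of fatty acid oxidation were followed in the ventral prostate of U19/Eaf2 wild-type and knockout mice. The list held 38 genes, 19 for synthesis and 19 for oxidation, and a gene was found when the platform annotation gave a probe set its symbol and no other. By this rule 37 of the 38 genes were found, with 85 probe sets, among 18193 genes of the array named in the same way. The probe set brightest on average over both arrays (log2 scale) stood for its gene, and any further probe sets served as a check. Acsl1 had no probe set listed under its symbol here.

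Fatty acid synthesis builds palmitate from acetyl-CoA and malonyl-CoA with NADPH, after which elongases and desaturases extend and unsaturate the chain and acyl-CoA synthetases activate it for use in lipids. Oxidation takes acyl-CoA into mitochondria through the carnitine shuttle and shortens it in cycles of dehydrogenation, hydration and thiolysis. Very long and branched chains are handled in peroxisomes. Prostate epithelium makes lipid under androgen control, and its fatty acid synthase is widely studied in prostate cancer.

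The wild-type sample carried U19/Eaf2 +/+ and the other was labelled U19/Eaf2 -/-. Which part of the gene was deleted is not stated in the sources used here. Both were ventral prostates of male C57BL/6J mice aged 3 months. Each group held 1 sample on 1 Affymetrix array, so that no test between groups was possible and no p-value, SD between animals or standard error is given. The labels speak of prostates in the plural, and pooling of animals is not stated in the sources used here. Every value below describes these 2 arrays, and their number limits the precision.

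The targeted gene Eaf2 gave signals of 691 (wild-type) and 702 in its only probe set. Where that probe set lies relative to the deleted part is not known here. The genotype label could therefore not be checked from these values, and the second sample is called the array labelled knockout. The tissue label was set against markers of the gland: Spink1, a secreted protease inhibitor of the ventral lobe, read 62610 and 64718, and the 7 luminal and ventral prostate markers found all passed the floor. All 5 seminal vesicle markers with a probe set stayed below it on both arrays. The 3' over 5' signal ratio, a guide to RNA degradation, was 1.25 and 1.65 for the Actb controls and 0.714 and 0.847 for the Gapdh controls, higher on the array labelled knockout for both.

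The floor was a signal of 166, the 50th percentile of all non-control signals. A gene was measured when its brightest probe set reached the floor on at least 1 array, and a lower value was then raised to it. Of the 37 genes found, 36 were measured, 17 for synthesis and 19 for oxidation. Acacb, which makes the malonyl-CoA that restrains mitochondrial import, stayed below it at 93.9 and 110. Pairs of signals are given with the wild-type array first, and differences as log2 of the signal labelled knockout over the wild-type signal. Signals of different probe sets are not compared as amounts of RNA. In whole tissue, fewer cells of a type and less RNA per cell cannot be told apart.

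Of the 36 measured genes, 17 had a log2 ratio within 0.2 of no difference, against 44.8% of all genes measured. Of the 17 measured synthesis genes, 12 read higher on the array labelled knockout and 5 lower, with a median log2 ratio of 0.15. Of the 19 oxidation genes, 12 read higher and 7 lower, with a median of 0.06. Among all 11671 genes measured, 47.0% read higher, 53.0% lower, and the median was -0.03. Only Nudt7 differed by at least 1.5-fold, 1 of 36 members against 11.0% of all genes. Nudt7 was also the only member at least 2-fold lower, against 0.883% of all genes, and the only member at least 1.5-fold lower, against 6.26%. No member was 1.5-fold higher, against 4.69%.

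**Figure D1:**
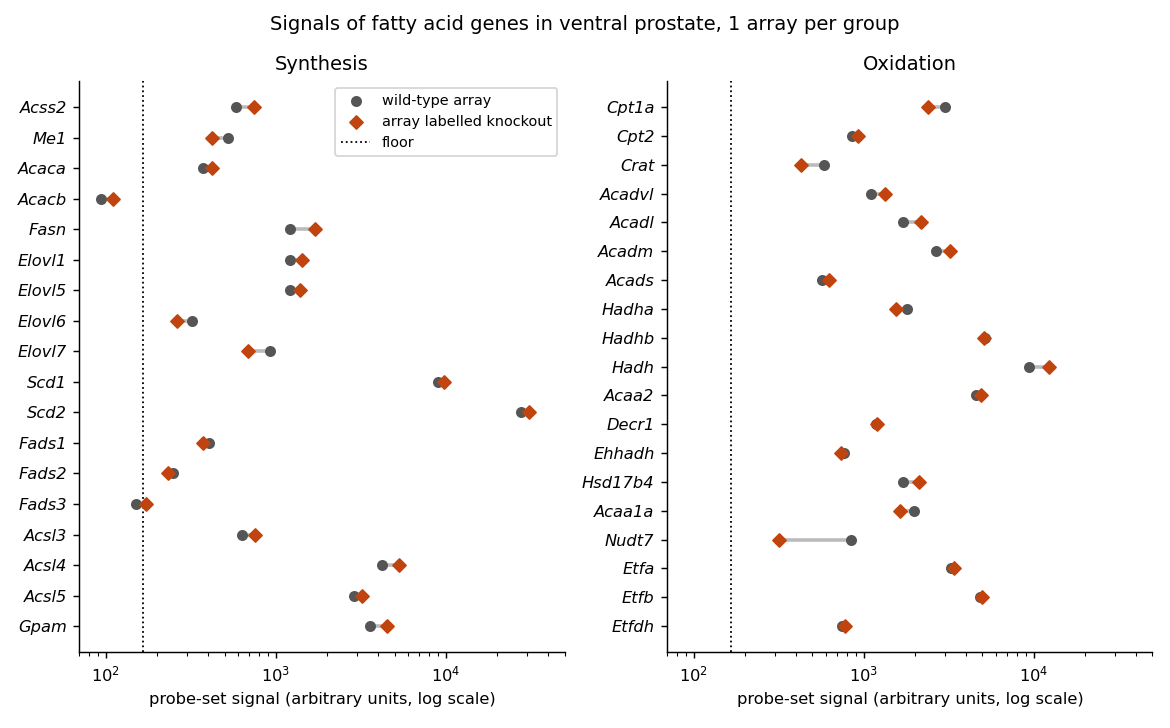
Signal of the brightest probe set of each gene (x axis, arbitrary units, log scale) on the wild-type array (grey circles) and the array labelled knockout (orange diamonds), 1 array each, with the floor of 166 as a dotted line. Acacb lies left of the floor, and Nudt7 has the widest gap, from 843 down to 319.

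The error available here is the disagreement among probe sets that target a common gene. Over 4497 genes for which 2 or more probe sets passed the floor on each array, the log2 ratios of a pair differed with an SD of 0.497, which is 0.352 per probe set. This spread leaves out animals, dissection and hybridisation. Of the 36 members, 6 lay farther than 0.352 from no difference: Fasn, Acadl and Hadh upward, and Elovl7, Crat and Nudt7 downward. The other 30 differed by less than that spread. The 6 of 36 stand against 31.3% of all genes measured, so that such differences were no more frequent in the list than over the array.

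Promoters of some members are shown as the sequence context of genes whose brightest probe set read higher or lower. The RefSeq start sites used here, build GRCm38.p6, covered 31 of the 38 genes. In 20 of them the 250 bases before the start lay outside the gene's own annotated span, and from these the highest and the lowest measured member of each list were taken. Fasn and Elovl7, at the ends of the synthesis list, were not among the 20. Each window is upstream of its gene and intergenic, except that of Me1, which overlaps the annotated gene A330041J22Rik. Capitals mark the CCAAT box (CCAAT) and the GC box (GGGCGG) on either strand.
Acss2, chr2:155517793-155518042, plus strand: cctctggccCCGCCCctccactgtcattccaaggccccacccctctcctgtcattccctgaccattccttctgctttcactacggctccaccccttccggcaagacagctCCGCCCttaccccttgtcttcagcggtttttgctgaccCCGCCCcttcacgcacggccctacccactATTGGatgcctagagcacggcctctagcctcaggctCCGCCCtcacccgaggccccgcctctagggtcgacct
Me1, chr9:86695915-86696164, minus strand: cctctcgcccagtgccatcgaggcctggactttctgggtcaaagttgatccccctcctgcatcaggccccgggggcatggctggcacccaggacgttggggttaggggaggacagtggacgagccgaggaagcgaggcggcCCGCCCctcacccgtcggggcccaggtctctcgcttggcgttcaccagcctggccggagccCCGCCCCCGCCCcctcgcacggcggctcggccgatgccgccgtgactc
Hadh, chr3:131272102-131272351, minus strand: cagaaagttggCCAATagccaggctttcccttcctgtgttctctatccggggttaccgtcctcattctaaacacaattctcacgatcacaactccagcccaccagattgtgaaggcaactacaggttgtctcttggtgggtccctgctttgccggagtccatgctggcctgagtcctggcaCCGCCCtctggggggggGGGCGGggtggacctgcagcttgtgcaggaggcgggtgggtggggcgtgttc
Nudt7, chr8:114133324-114133573, plus strand: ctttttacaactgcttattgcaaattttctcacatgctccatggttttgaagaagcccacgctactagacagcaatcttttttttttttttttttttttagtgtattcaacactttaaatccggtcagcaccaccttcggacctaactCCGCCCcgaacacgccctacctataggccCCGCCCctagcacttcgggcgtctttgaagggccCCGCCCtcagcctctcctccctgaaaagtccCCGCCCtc

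Both boxes were common in the promoters of the list. The CCAAT box, a nuclear factor Y motif, was in 11 of 20 synthesis windows (some genes have several starts) and 7 of 16 oxidation windows, against 33.8% of the 32851 windows in the table. The GC box, an Sp1 motif, was in 11 of 20 and 11 of 16, against 32.7%. The median GC content was 58.8% for members and 52.4% for all windows. The Nudt7 window held 4 GC boxes and the Acss2 window 4 GC boxes and 1 CCAAT box. The sterol regulatory element in the form TCACCCCAC was found for Acsl1 alone, against 0.496% of all windows, and the E-box CACGTG for Elovl5 alone, against 6.02%. The direct repeat known as DR1, a motif of peroxisome proliferator-activated receptors searched in its consensus form, was in 0 windows of members and 0.0335% of all. Neighbouring CCAAT and GC boxes can share letters. A match describes the letters of a window, not binding.

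Supply of acetyl-CoA and NADPH went both ways. Acss2, which makes acetyl-CoA from acetate, read 586 and 742, a log2 ratio of 0.34. A further Acss2 probe set, at 319 and 682, gave 1.10. Both measured probe sets of Acss2 were therefore higher on the array labelled knockout, by amounts that differed by 0.76, while its last stayed below the floor at 149.6 and 20.5. Me1, the cytosolic malic enzyme that yields NADPH, read 520 and 419, a log2 ratio of -0.31. The other Me1 probe set read 72.1, below the floor, and 252, at least 1.52-fold higher, so that the direction for Me1 depended on the probe set.

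The enzymes that build the chain read higher. Fasn, the synthase that assembles palmitate, had a single probe set, at 1219 and 1710, 1.40-fold higher on the array labelled knockout. Its log2 ratio of 0.49 was the highest of the list, and 17.2% of all genes measured lay at least as far from 0. Acaca, the cytosolic acetyl-CoA carboxylase that makes malonyl-CoA for synthesis, read 374 and 420, a log2 ratio of 0.17. Its other probe set stayed below the floor on both arrays.

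The elongases were split, 2 higher and 2 lower. Elovl5, which lengthens polyunsaturated chains, read 1216 and 1391, a log2 ratio of 0.19, and 0.16 in its other probe set. Elovl1, an elongase of saturated very long chains, read 1216 and 1431, a log2 ratio of 0.23. The other 2 Elovl1 probe sets above the floor disagreed, at 0.12 and, from signals of 1653 and 936, at -0.82. Elovl6, which lengthens palmitate to stearate, was lower at 323 and 262, a log2 ratio of -0.30. Elovl7, another very-long-chain elongase, read 930 and 685, at -0.44 the lowest log2 ratio of the synthesis genes. Its other 4 probe sets above the floor ran from -0.86, a bound, to 0.85, with 3 lower and 1 higher, the widest range of any member.

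The desaturases all lay within 0.2 of no difference. Scd1, which makes oleate from stearate, read 9008 and 9758, a log2 ratio of 0.12, while its other probe set read 2593 and 1876, a log2 ratio of -0.47. Scd2, its close relative, read 27594 and 30715, a log2 ratio of 0.15, and its other 2 probe sets had -0.27 and -0.58. In both genes the brightest probe set was higher on the array labelled knockout and each dimmer probe set was lower. Near-identical stretches of Scd1 and Scd2 may share probes, so their values are uncertain as values of single genes. Fads1 and Fads2, the front-end desaturases of polyunsaturated fatty acids, had log2 ratios of -0.13 and -0.09, each with an opposite probe set at 0.24 and 0.43. Fads3 read 150, below the floor, and 173, a bound of 0.06.

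Acyl-CoA synthetases and Gpam were higher throughout in their brightest probe sets, 4 of 4 measured, against 47.0% of all genes. Acsl3, a synthetase of lipid droplets and endoplasmic reticulum, read 629 and 757, a log2 ratio of 0.27, with a bound of 0.49 in its other measured probe set. Acsl4, which prefers arachidonate, read 4236 and 5273, a log2 ratio of 0.32, against 0.16 and -0.25 in its other 2. Acsl5 read 2899 and 3222 in its only probe set, a log2 ratio of 0.15. Gpam, the mitochondrial acyltransferase that starts glycerolipid synthesis, read 3587 and 4502, a log2 ratio of 0.33, and 0.02 in its other probe set. Each of these 4 differences was smaller than the spread of 0.352 between probe sets.

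In oxidation, the carnitine shuttle was split. Cpt1a, the outer-membrane transferase that controls entry of long chains, read 3003 and 2406, a log2 ratio of -0.32, while its other 2 probe sets had 0.34 and 0.28. The median over its probe sets was 0.28, on the other side of 0. Cpt2, the inner-membrane partner, read 858 and 931, a log2 ratio of 0.12, and -0.02 in its other probe set. Crat, carnitine acetyltransferase, read 588 and 430, a log2 ratio of -0.45, with -0.27 and 0.34 in its other 2.

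The 4 mitochondrial acyl-CoA dehydrogenases of the list, which open each cycle for a range of chain lengths, all read higher on the array labelled knockout. Over all genes measured 47.0% did. Acadvl, for very long chains, read 1113 and 1343, a log2 ratio of 0.27. Acadl, for long chains, read 1703 and 2182, 1.28-fold higher and 0.36 on the log2 scale. Acadm, for medium chains, read 2651 and 3244, a log2 ratio of 0.29. Acads, for short chains, read 569 and 625, a log2 ratio of 0.14. Each rested on 1 probe set above the floor, so that no measured probe set of these genes went the other way, and Acadl was the only one past the spread of 0.352.

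The electron transfer flavoprotein system, which takes the electrons from these dehydrogenases to ubiquinone, read alike on both arrays. Its subunits Etfa and Etfb read 3259 and 3392, and 4842 and 4958, with log2 ratios of 0.06 and 0.03. Its oxidoreductase Etfdh read 746 and 777, a log2 ratio of 0.06. The 3 genes spanned 0.03 to 0.06, the narrowest range of any role with more than 2 genes measured. After quantile or loess normalization 1 of the 3 read higher.

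The later steps of the mitochondrial cycle were mixed. Hadha and Hadhb, the subunits of the trifunctional protein, read 1810 and 1549, and 5151 and 5127. Their log2 ratios were -0.22 and -0.0066, and the other 2 probe sets of Hadhb were lower too, at -0.17 and -0.33. Hadh, the short-chain hydroxyacyl-CoA dehydrogenase, read 9364 and 12257, at 0.39 the highest log2 ratio of the oxidation genes. Its other probe sets gave 0.05 and -0.32, the latter from signals of 3050 and 2437. Acaa2, the mitochondrial thiolase, had 3 probe sets between 0.01 and 0.19. Decr1, a dienoyl-CoA reductase for unsaturated chains, read 1175 and 1207, a log2 ratio of 0.04, and 0.07 in its other probe set.

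Peroxisomal genes held the largest difference of the list. Nudt7, a peroxisomal hydrolase of coenzyme A and acyl-CoA, gave 843 and 319, so that it was 2.64-fold lower when labelled knockout. Its log2 ratio was -1.40, and 0.240% of all genes measured lay at least as far from 0. A further Nudt7 probe set, at 467 and 396, gave -0.24. The remaining 2 stayed below the floor on both arrays, at 80.1 and 7.94 and at 35.9 and 16.6. Without detection calls, such signals could not be told from background. Both measured probe sets were thus lower when labelled knockout, but the size of the difference rested on 1 of them.

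The remaining peroxisomal enzymes differed less. Ehhadh, a peroxisomal hydratase and dehydrogenase in a single protein, read 770 and 739, a log2 ratio of -0.06. Hsd17b4, its counterpart that also serves branched chains, read 1702 and 2126, a log2 ratio of 0.32, and 0.0078 in its other probe set. Acaa1a, the peroxisomal thiolase, read 1989 and 1637, a log2 ratio of -0.28, with 0.19 in its other probe set. A further 2 probe sets carry both Acaa1a and its close copy Acaa1b, with log2 ratios of -0.38 and 0.02, so that the Acaa1a value is uncertain.

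Probe sets of the same gene often disagreed, over the whole array as in the list. Of 22 members with more than 1 probe set above the floor, 9 had all of them on the same side of 0 and 13 had at least 1 opposite to the brightest. Over all genes with more than 1 probe set above the floor, 57.4% had at least 1 opposite. Counted by probe set, 43 of the 69 above the floor were higher on the array labelled knockout, against 45.2% of 20538 over the whole array. The synthesis probe sets had a median log2 ratio of 0.15 and the oxidation probe sets of 0.05. Probe sets of a gene share their transcript and are not independent replicates.

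**Figure D2:**
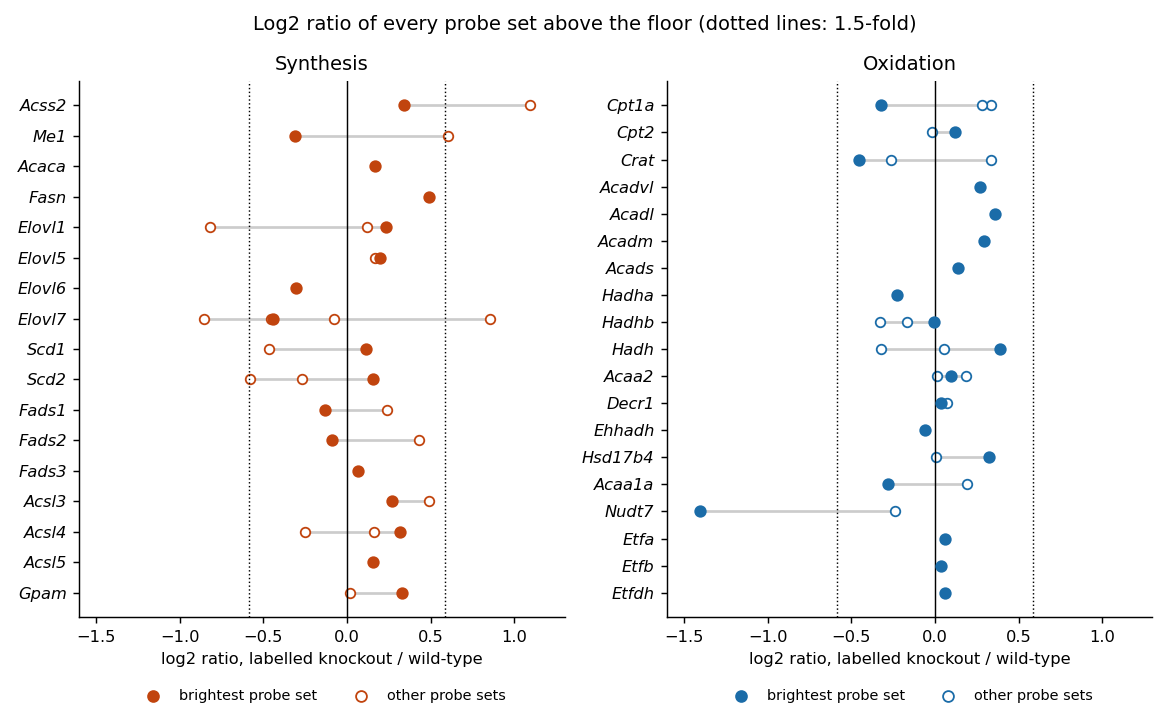
Log2 ratio of the array labelled knockout over the wild-type array (x axis) for each probe set above the floor, with the brightest probe set of each gene filled and the others open. Synthesis genes are at left and oxidation genes at right, a grey line spans the probe sets of a gene, and dotted lines mark 1.5-fold. Elovl7 spans both sides of 0, the 4 acyl-CoA dehydrogenases of the list lie above 0, and Nudt7 lies farthest left at -1.40.

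The ratio also varied with signal strength over the whole array. In the brightest quartile of all genes measured the median log2 ratio was 0.09 and 61.5% read higher, against -0.13 and 33.6% in the dimmest quartile. The list was weighted toward bright genes, with 16 of its 36 measured members in the brightest quartile, 5 for synthesis and 11 for oxidation. Those 16 had a median log2 ratio of 0.13, with 12 higher. In the third quartile by brightness 9 of 11 members were higher, against 52.6% of all genes there, with a median of 0.19 against 0.02. In the second quartile 2 of 6 were higher, against 40.2% of all genes there, with a median of -0.22 against -0.09. In the dimmest 1 of 3 was higher, with a median of -0.09 against -0.13. The shares past 1.5-fold were 7.47% of genes in the brightest quartile and 15.4% in the dimmest. With this trend removed by a loess fit, the synthesis median was 0.15 and the oxidation median -0.0026.

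**Figure D3:**
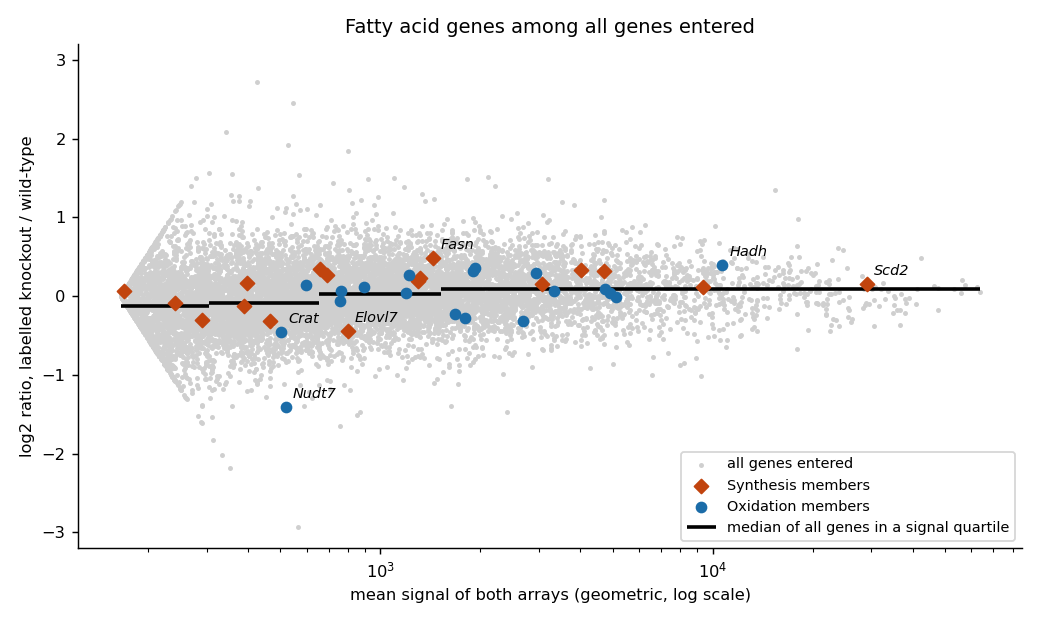
Log2 ratio of the array labelled knockout over the wild-type array (y axis) against the geometric mean signal of both arrays (x axis, log scale) for 11671 genes (grey), with synthesis members as orange diamonds and oxidation members as blue circles. Black bars give the median of all genes in each quartile of signal, from -0.13 in the dimmest to 0.09 in the brightest, and 35 of the 36 members lie within -0.77 to 0.70, the central 95% of all genes.

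Enzymes of the same pathways outside the list showed no lean. Of 29 other synthesis enzymes 22 were measured, 11 higher and 11 lower, with a median log2 ratio of 0.02. Hacd2, a dehydratase of the elongation cycle, read 7355 and 11671, a log2 ratio of 0.67. Pgd, which yields NADPH in the pentose phosphate pathway, had 0.49 and an opposite probe set, and Hsd17b12, the ketoacyl reductase of elongation, had 0.42. The lowest were Hacd1, another dehydratase, at -0.48, Mid1ip1, an activator of acetyl-CoA carboxylase, at -0.43, and Mecr, of mitochondrial synthesis, at -0.35.

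Of 30 other oxidation enzymes 22 were measured, again 11 higher and 11 lower, with a median of 0.05. Acad9, an acyl-CoA dehydrogenase that also assembles respiratory complex I, read 224 and 430, a log2 ratio of 0.94, with 1 of its 2 other probe sets opposite. The median over the Acad9 probe sets was 0.03, so that the size of its difference rested on 1 of them. Of the further acyl-CoA dehydrogenases, Acadsb, for short branched chains, was lower at 841 and 776, a log2 ratio of -0.11, while Acad10 and Acad11 had 0.14 and 0.11, each with an opposite probe set. Slc25a20, the carnitine-acylcarnitine carrier, had 0.59 with an opposite probe set, and Abcd3, a peroxisomal importer, had 0.38. Decr2, a peroxisomal dienoyl-CoA reductase, read 2869 and 1692, a log2 ratio of -0.76. Acox2, a peroxisomal oxidase of branched chains, had a bound of -0.46, and Eci1, an enoyl-CoA isomerase, had -0.30. Nudt7 and Decr2 were the 2 peroxisomal enzymes lowest on the array labelled knockout in these lists, a pairing picked out after their values were seen.

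Of 9 measured genes of sterol regulatory element and carbohydrate response, which regulate synthesis, 6 read higher, with a median log2 ratio of 0.16. With the least different probe set of each gene 4 of 9 read higher and the median was -0.01. Srebf2, a transcription factor of sterol synthesis, had 0.57 with an opposite probe set, Mbtps2, a protease that releases such factors, 0.34, and Insig1, which retains them, 0.29. Mlx, the partner of the carbohydrate response factor, had -0.55, Mbtps1, the other protease, -0.30 and Scap, the escort of the factors, -0.28. Cholesterol synthesis, which shares these regulators, had 11 of 16 measured genes higher and a median of 0.14. Its highest member was Fdps, farnesyl diphosphate synthase, at 0.78 and its lowest Pmvk, phosphomevalonate kinase, at -0.64. With the least different probe set of each gene 9 of the 16 read higher and the median was 0.07. Over all genes measured 47.0% read higher.

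Receptors and coactivators that control oxidation were few above the floor. Of 7 genes 5 were measured, 2 higher and 3 lower, with a median log2 ratio of -0.13. Ppara, a receptor for fatty acids that drives oxidation genes, read 222 and 286, a log2 ratio of 0.37, with the same direction in its other 2 probe sets. Its partner Rxra read 1064 and 470, a log2 ratio of -1.18, and a further probe set of it gave 0.057. The other receptor partner Rxrb had 0.21, and the coactivators Ppargc1a and Ppargc1b had -0.13 and -0.18. Of the 5 measured Ppargc1a probe sets, 3 were opposite to the brightest, and their median was 0.03. With the least different probe set of each gene 4 of 5 read higher and the list median was 0.05.

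Adipocytes also carry much of the synthesis machinery, and their markers differed between the same arrays. Of 10 adipocyte markers 6 were measured, 3 higher and 3 lower, and the summed signal of the 8 with a probe set was 1788 for the wild-type sample against 3371. Car3, a carbonic anhydrase of fat and muscle, read 234 and 1278, and Adipoq, adiponectin, read 13.8, below the floor, and 255, at least 1.54-fold higher. Fabp4, a fatty acid carrier, read 559 and 1001, a log2 ratio of 0.84, and 0.03 in its other measured probe set. Plin4, a lipid droplet coat protein, was lower at 372 and 300.0, Retn, resistin, at 387 and 341, and Lipe, hormone-sensitive lipase, at 184 and 153, the latter below the floor. Car3 alone made up 1044 of the 1583 by which the sums differed. Lep and Cidec stayed below the floor on both arrays, and no marker was at 0. Smooth muscle markers were lower in 8 of 8, against 53.0% of all genes measured, with summed signals of 52545 and 38598. Of 8 skeletal muscle markers 3 were measured, 1 higher and 2 lower, with sums of 2595 and 2083 over all 8. Acta1, the brightest of them, read 1720 and 1010, lower by more than the sums differed. Myh1 was higher, at 361 and 417. Macrophage markers were lower in 5 of 8, against the same 53.0% of all genes, with sums of 5801 and 5326. Of the 7 luminal and ventral prostate markers 4 were higher and 3 lower, from Pbsn, probasin, at a log2 ratio of -0.38 to Tmprss2, a membrane protease, at 0.53, with sums of 148573 and 148532. Each sum is weighted toward its brightest probe sets, here Spink1 and Pbsn. The part of these cell types, and of the Actb ratio of 1.25 against 1.65, in the fatty acid values was not tested.

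The upward lean of the synthesis list held its sign under every alternative tried, and that of oxidation did not. The synthesis median ran from 0.12, taking the least different probe set of each gene, to 0.19, with a floor at the 70th percentile. The oxidation median ran from -0.0026 under loess to 0.08 under median centring. Among the 36 measured members, 16 were higher under every alternative that gave a value and 5 lower, and 15 changed sign under at least 1. The choice of probe set could alter the sign only in the 22 members with more than 1 above the floor. The 5 always lower were Elovl6, Elovl7, Hadha, Ehhadh and Nudt7, of which Elovl6, Hadha and Ehhadh had 1 probe set above the floor. Of the 16 always higher, Acaca, Fasn, Fads3, Acsl5, Acadvl, Acadl, Acadm, Acads and Etfdh also had 1. Elovl1 and Acsl4, always higher, and Elovl7, always lower, each had an opposite probe set that no alternative took.

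**Figure D4:**
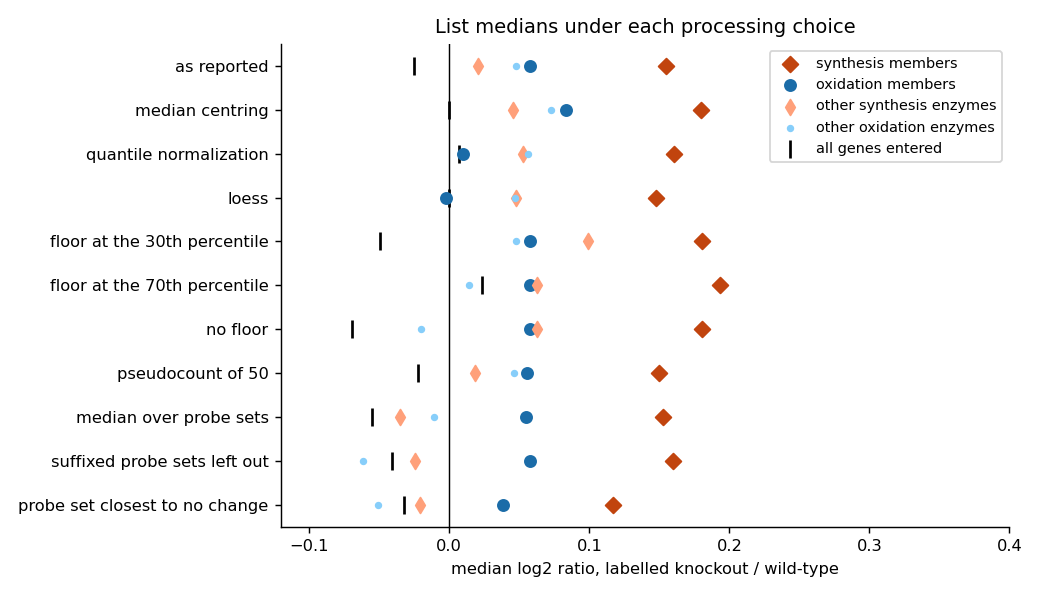
Median log2 ratio of the array labelled knockout over the wild-type array (x axis) for the synthesis and oxidation members, the other enzymes of both pathways and all genes measured (black bars), under each processing choice (y axis). The synthesis members lie between 0.12 and 0.19 in every row, whereas the oxidation members meet 0 under loess.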

How the data were processed

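The deposited table held linear signal intensities, 1 per probe set and array, made by the authors with GCOS 1.4 per the submitters' processing notes, at settings not stated in the sources used here. Per the labels' protocols, 5 ug of Trizol-extracted total RNA was labelled with biotin. With 2% trimmed at either end, the mean signal of each array was 500.0, which shows scaling of each array as a whole. Detection calls were not used here.

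Probe sets with exactly 1 gene symbol entered (34945 of 45037 that were not controls), 932 with several and 9160 with none did not, and all 37 genes found matched the RefSeq gene table by Entrez ID. No pseudocount was added. Counts used folds of 1.5 and 2. Without replicates there was no test and no paired or leave-one-out analysis. Any measured member could be named, and of each other list up to 3 genes at either end. The members and lists were chosen with earlier results of these data known. Calculations used Python 3.11.15, numpy 2.4.6, pandas 2.3.3 and statsmodels 0.14.6 and were tested on simulated arrays. The 10 alternatives listed beforehand changed scaling, the floor, a pseudocount of 50 or the choice of probe set, and 1 more was chosen after seeing the data.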

Additional observations from a re-analysis of the deposited data

How the results depend on the processing

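No paired analysis was possible because each group held 1 array. Loess used a span of 0.4, and suffixed probe sets are those of the types _s_at, _x_at and _a_at, 12 of the 36 in use for members. The count of synthesis members past 1.5-fold was 0 as reported and 1 both with the median over probe sets, which was Acss2 at 0.72, and without suffixed probe sets, which was Me1 at 0.60. The count for oxidation was 1 as reported, Nudt7, and 0 both without suffixed probe sets, which left no measured Nudt7 probe set, and with the least different probe set of each gene, where Nudt7 had -0.24. The median of the other oxidation enzymes was -0.061 without suffixed probe sets and -0.051 with the least different probe set. Slc25a20 turned to -0.097 with that choice. Rxra turned to 0.057 with it and also without suffixed probe sets. The other synthesis and oxidation medians moved by less than the spread between probe sets allows for a median of that many genes. Keeping only members with no opposite probe set, a choice made after seeing the data, gave medians of 0.19 over 9 synthesis genes and 0.06 over 14 oxidation genes. Of these, only 4 synthesis and 5 oxidation genes had more than 1 probe set above the floor. The rest had no further measured probe set that could disagree. Of the 19 oxidation members 12 read higher as reported and 8 after loess, with a median of -0.0026. Over all genes the median ran from -0.07 with no floor to 0.02 with the floor at the 70th percentile. Without detection calls, signals near the floor of 166 could not be told from background.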
